A study of Sus scrofa with 46 samples.

Results

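The genes described here encode the subunits of the mitochondrial respiratory chain and of ATP synthase that are carried in the nuclear genome. They were chosen by symbol: names that begin with NDUFA, NDUFB, NDUFC, NDUFS or NDUFV and a number for complex I, with UQCR or equal to CYC1 for complex III, with COX4 to COX8 for complex IV, and with ATP5 for ATP synthase, also called complex V. Of 18440 genes in the table, 66 matched, 36 in complex I, 2 in complex III, 10 in complex IV and 18 in complex V. NDUFA4 and NDUFA4L2 were placed with complex IV, where the NDUFA4 protein is now known to sit. Subunits with other symbols, and the 13 genes of the mitochondrial genome, were not analysed here.

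Liver RNA came from 46 piglets that were kept indoors until 72 hours of age and came from crosses of Landrace and Yorkshire sows with Duroc boars. There were 13 piglets with intrauterine growth restriction (IUGR) labelled as given an energy treatment, 10 untreated IUGR piglets, 12 normal-sized piglets given the treatment and 11 untreated normal-sized piglets. The treatment was Piggy Boost, an oral energy paste with colostrum, fatty acids and vitamins, and IUGR was graded by eye from head shape and facial features. Piglets of one sow were spread over the groups, but litter, sex and sampling week are not in the labels, and no term for them could be fitted.

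Complex I takes electrons from NADH, complex III passes them from ubiquinol to cytochrome c, and complex IV hands them to oxygen. All these complexes pump protons out of the mitochondrial matrix, and complex V lets the protons back in to make ATP. All 4 complexes combine subunits encoded in the nucleus with others encoded in the mitochondrial genome. In the newborn liver this machinery pays for glucose production and urea synthesis while the animal moves from placental supply to milk.

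The total estimated count per library was 15036577 to 19340221, and levels are given as CPM, which is a gene's counts scaled to a common library total, here with TMM factors. CPM is not corrected for transcript length, so levels are compared between livers and never between genes. Differences between groups were assessed by the quasi-likelihood test of edgeR over 13780 genes that passed a filter on low counts, with the p-values adjusted over all of them and 0.05 as the threshold. Of the 66 members, 65 passed that filter. COX8H, the heart isoform of a complex IV subunit, did not pass, with 1 count in each of 2 libraries and 0 in the others. Groups are named as labelled. It is uncertain from earlier results of these data that each pig number heads its own column, so every difference between groups below holds only if it does, whereas the levels and the co-variation over livers do not depend on it. The libraries of pig 38 (IUGR untreated) and of pigs 39 and 46 (IUGR treated) stood apart, with a median correlation over all genes of 0.765 to 0.843 with the other libraries, against 0.953 to 0.966 for the other 43. Many values that rest on these 3 libraries are therefore given with and without them, and the others include them unless said otherwise. The hepatocyte markers (9 rows for 8 symbols, albumin and apolipoproteins among them) summed to 68960 to 209800 CPM per library, and in bulk tissue fewer cells of a type and less RNA per cell cannot be told apart.

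The subunit genes moved together from liver to liver. Over the 43 livers other than those of pigs 38, 39 and 46, the log2 CPM of 2 members had a median correlation of 0.723, and 2022 of 2080 pairs were positive. The median over all pairs of the 13780 genes was -0.0030. Those pairs were not matched for level, so the 2 medians do not show that members move together more than genes of like level. The median r was 0.687 within complex I, 0.838 for the only pair in complex III, 0.802 within complex IV, 0.785 within complex V and 0.739 between members of different complexes. These are correlations over livers that share depth and tissue make-up, and they carry no test. The closest pair crossed complexes, NDUFB11 of the complex I membrane arm and COX5B of complex IV, with r = 0.944. ATP5MG and ATP5MC3 reached 0.940, both of the membrane part of ATP synthase. COX6B, a complex IV subunit that faces the intermembrane space, had the highest median correlation with the other members, 0.839.

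**Figure D1:**
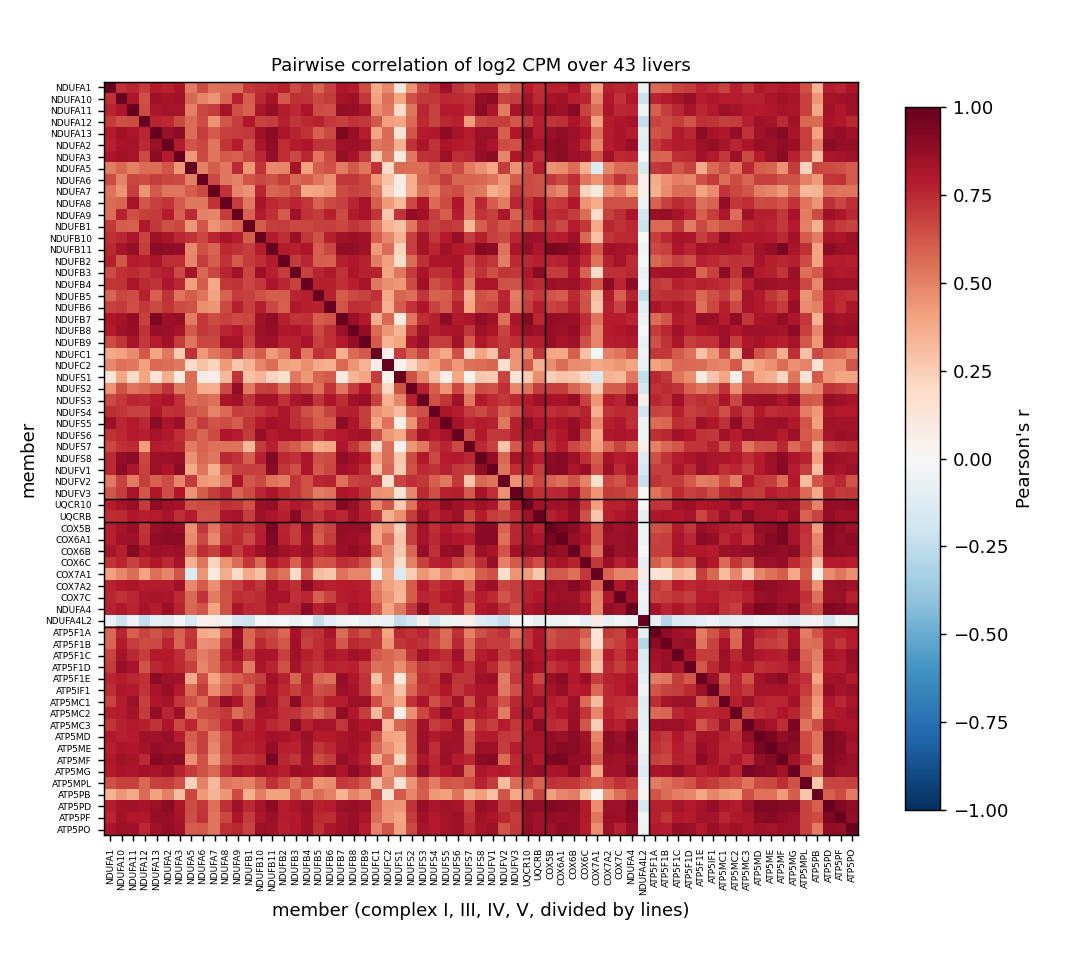
Heat map of Pearson's r between the log2 CPM of each pair of 65 tested members over 43 livers (those of pigs 38, 39 and 46 left out), with members on both axes in the order complex I, III, IV and V and lines between the complexes. Nearly the whole map is red, with a median r of 0.723. NDUFA4L2 forms a pale stripe, and NDUFS1, COX7A1 and NDUFC2 form paler red ones.

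A few members stood outside this shared movement. NDUFA4L2, a paralogue of NDUFA4 that is induced by hypoxia, had a median r of -0.06 with the other members, and its level was low, 0.0634 to 1.22 CPM, so that its counts were few. NDUFS1, the largest iron-sulfur subunit of the NADH-oxidizing arm of complex I, had a median r of 0.34. COX7A1, the muscle isoform of complex IV subunit 7a, had a median r of 0.45, and NDUFC2, a membrane arm subunit of complex I, also had 0.45. NDUFS1 and COX7A1 ran slightly against each other (r = -0.14). ATP5PB, the stator subunit b of ATP synthase, followed with 0.49.

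Position in the genome was not shared. The 65 members with a place in the annotation (RefSeq, Sscrofa11.1) lie on 18 chromosomes, 12 of them on chromosome 2 and 2 on X. Only 3 pairs lie within 500000 bases of each other. NDUFS8 and NDUFV1, an iron-sulfur and a flavin subunit of complex I, are 91115 bases apart on chromosome 2 and had r = 0.883. ATP5F1D and NDUFS7, 129288 bases apart on the same chromosome, had r = 0.726, and COX6B and COX7A1, 416439 bases apart on chromosome 6, had r = 0.549. The last of these is below the median of all member pairs.

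In single livers the shared movement took the whole set up or down. The median difference of the 65 members from their own medians over the 46 livers was taken in each library. Over the 43 libraries it ran between -0.38 and 0.45 on the log2 scale, a span of 1.77-fold. The same median over all genes lay between -0.026 and 0.011, but TMM scaling holds that value near 0. It is therefore no measure of how far other sets of genes move. In 14 of the 43 libraries at least 60 of the 65 members lay on the same side of their medians, 8 times below and 6 times above. Among all livers labelled IUGR treated the shift was -0.30 to 0.79 (median 0.02, above 0 in 8 of 13), and among those labelled IUGR untreated -0.38 to 0.32 (median 0.11, above 0 in 7 of 10). Without pigs 38, 39 and 46 the IUGR treated livers reached 0.45 at most (median 0.00, above 0 in 6 of 11), and the IUGR untreated livers had a median of 0.08 and were above 0 in 6 of 9. It was -0.38 to 0.12 in normal-sized treated livers (median -0.09, above 0 in 3 of 12) and -0.26 to 0.41 in normal-sized untreated livers (median 0.14, above 0 in 8 of 11). The 4 groups overlapped widely, and only the normal-sized treated livers had most of their values below 0.

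**Figure D2:**
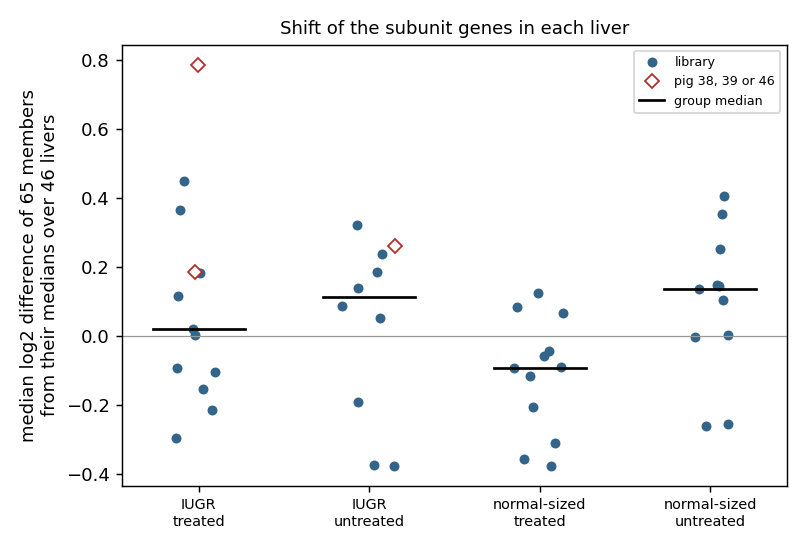
Median log2 difference of 65 members from their own medians over 46 livers (vertical axis), 1 point for each library, by labelled group, with a bar at the group median and open diamonds for pigs 38, 39 and 46. The normal-sized treated livers reach 0.12 at most, while each other group reaches 0.32 or more.

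Summed over all members, the transcripts took 0.489 to 0.871% of the counts of a library. The sum was 6617 ± 1100 CPM in IUGR treated, 6428 ± 1027 in IUGR untreated, 5950 ± 728 in normal-sized treated and 6891 ± 924 in normal-sized untreated livers (SD, n = 13, 10, 12 and 11). All 4 complexes had their lowest group mean in normal-sized treated livers. Complex I members summed to 2029 ± 483, 1928 ± 310, 1722 ± 210 and 1995 ± 273 CPM in the same order of groups. That IUGR treated mean includes pig 46 at 3301 CPM. The highest of the 43 livers other than those of pigs 38, 39 and 46 had 2495 CPM. The group medians of complex I were 1874, 2054, 1716 and 2020 CPM. For complex III the sums were 157 ± 33.0, 153 ± 33.0, 146 ± 15.6 and 178 ± 29.2 CPM, and for complex IV 1000 ± 206, 961 ± 166, 903 ± 123 and 1032 ± 170 CPM. Complex V members summed to 3431 ± 533, 3386 ± 562, 3179 ± 394 and 3686 ± 474 CPM. All these group values include pigs 38, 39 and 46 in their groups. The ranges of the 4 groups overlapped in every complex, and no test was run on sums over chosen genes.

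The first comparison asked whether growth restriction came with another level of these transcripts in livers without the paste. In IUGR untreated against normal-sized untreated livers, edgeR called 0 of 65 members, with 0.0435% of all genes called, and DESeq2 and limma voom also called 0. At an unadjusted p under 0.05 there were 3 members (4.62%), against 12.5% of all genes. On the higher side it was 1 member (6.44% of all genes) and on the lower side 2 (6.09% of all genes). Without pigs 38, 39 and 46 the counts were 1 higher and 6 lower (9.23%), against 6.6% and 9.53% of all genes. Of the 65 log2 fold changes 21 were positive, against 51% over all genes, with a median of -0.07 beside 0.01 for all genes tested. Without the 3 pigs 10 of 65 were positive and the median was -0.09. The 3 members were NDUFC2, which was on the high side in IUGR livers, and NDUFA9 and ATP5PB, which were on the low side.

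NDUFC2 (chr9:12486488-12492507, Sscrofa11.1) had 67.4 to 149 CPM in IUGR untreated livers (median 90.5), against 49.8 to 108 CPM in normal-sized untreated livers (median 69.8). Of 10 IUGR livers 9 lay above the normal median and 3 above the highest normal liver, and the ranges overlapped. The log2 fold change was 0.46 ± 0.18 (SE), with an adjusted p of 0.273 in edgeR, and 0.37 without pigs 38, 39 and 46, the first of which gave the highest value. In treated livers the same gene had 56.0 to 190 CPM with IUGR (median 81.3), against 47.7 to 101 CPM in normal-sized livers (median 71.7). There the log2 fold change was 0.37 ± 0.17 with all libraries and 0.10 without those 3 pigs, so that most of the difference in treated livers came with pigs 39 and 46. As the mean of both IUGR contrasts, in which edgeR called 0 of the members and 0% of all genes, NDUFC2 had 0.41 ± 0.12 with an adjusted p of 0.0857, the lowest of any member in any contrast of that fit, and 0.24 (adjusted p = 0.326) without the 3 libraries. In that mean 10 members (15.4%) had an unadjusted p under 0.05, all higher in IUGR livers, against 15.8% of all genes on that side, and 41 of 65 values were positive, against 51.9% of all genes. Without the 3 libraries 1 member was higher and 1 lower at that limit (1.54% each), against 4.76% and 6.87% of all genes, and the median was 0.02, beside 0.09 with all libraries. DESeq2 and limma voom called 0 there.

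NDUFA9, a subunit at the joint of the complex I arms near the quinone site, had 52.7 to 96.3 CPM in IUGR untreated livers (median 71.7), against 67.7 to 106 CPM in normal-sized untreated livers (median 93.5), with 8 of 10 IUGR livers below the normal median. Its log2 fold change was -0.24 ± 0.11 (adjusted p = 0.363). ATP5PB had 147 to 301 CPM (median 230), against 225 to 360 CPM (median 278), and -0.30 ± 0.13 (adjusted p = 0.344). For both genes the ranges overlapped and neither passed edgeR's threshold. The lowest IUGR untreated value of both was that of pig 38. Without it the IUGR untreated livers had 59.7 to 96.3 CPM for NDUFA9 (median 74.1) and 188 to 301 CPM for ATP5PB (median 242). Over the alternative fits the log2 fold change was -0.24 to -0.14 for NDUFA9 and -0.30 to -0.19 for ATP5PB.

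The other members named by rule in this contrast had smaller or less certain differences. In complex I, NDUFC1 had a log2 fold change of -0.28 ± 0.14. NDUFS4, whose loss causes Leigh syndrome in people, had -0.22 ± 0.12. NDUFV2, an iron-sulfur subunit of the NADH-binding tip, had -0.29 ± 0.17. UQCRB, a ubiquinone-binding subunit of complex III, had -0.35 ± 0.33 and the small subunit UQCR10 had -0.03 ± 0.14. In complex IV, COX7A1 had 0.34 ± 0.18, NDUFA4 -0.27 ± 0.17, COX7A2 -0.16 ± 0.14, COX7C -0.16 ± 0.17 and COX6C -0.21 ± 0.33. In complex V, the catalytic subunit alpha gene ATP5F1A had -0.17 ± 0.12, the stator subunit gene ATP5PF had -0.26 ± 0.20, and the membrane subunit genes ATP5MC3 and ATP5MG had -0.19 ± 0.13 and -0.14 ± 0.10. Adjusted p-values in this group of genes were 0.398 to 0.958 in edgeR. The fits of UQCRB and COX6C include the very low values of pigs 38, 39 and 46 described further on. NDUFV2, NDUFS4, NDUFA4, COX7A2, COX7C and ATP5PF were also below all other livers in each of these 3 libraries. Over the alternative fits, with and without those pigs, UQCRB had -0.35 to -0.17 and COX6C -0.21 to -0.05. NDUFV2 had -0.30 to -0.16, NDUFS4 -0.22 to -0.11 and NDUFA4 -0.27 to -0.14. COX7A2 had -0.16 to -0.07, COX7C -0.17 to -0.04 and ATP5PF -0.26 to -0.10.

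In livers of piglets given the paste the picture had the other sign. Between IUGR treated and normal-sized treated livers edgeR called 0 of 65 members, with 0.00726% of all genes called, and DESeq2 and limma voom called 0 as well. At an unadjusted p under 0.05 there were 28 members (43.1%), all higher in IUGR livers, against 13.7% of all genes on that side. The log2 fold change was positive for 51 of 65 members, against 52.5% of all genes, and had a median of 0.24, beside 0.02 for all genes. By complex, 20 of 36 members of complex I, 1 of 2 of complex III, 2 of 9 of complex IV and 5 of 18 of complex V had an unadjusted p under 0.05. Without pigs 38, 39 and 46 the median was 0.13 and the count was 8 (12.3%, against 2.95% of all genes), while 64 of 65 members were then positive. The split by complex includes pigs 39 and 46 and is not given without them. In these 2 libraries the median shift of complex I members from their medians over the 46 livers was 0.45 and 0.88. It was 0.09 and 0.15 for complex IV, and -0.07 and 0.36 for complex V.

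NDUFC1, a small subunit of the complex I membrane arm (chr8:87695273-87700024), had the lowest p of the members there. Its level was 9.84 to 22.3 CPM in IUGR treated livers (median 14.4), against 8.24 to 13.9 CPM in normal-sized treated livers (median 10.3). Of 13 IUGR livers 8 lay above the highest normal liver, and 4 of 12 normal livers lay below the lowest IUGR liver. Its log2 fold change was 0.47 ± 0.13 (adjusted p = 0.208), and 0.35 without the 3 libraries (adjusted p = 0.484).

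ATP5MC1, which encodes the c-ring protein of ATP synthase, had 57.9 to 239 CPM in IUGR treated livers (median 83.6), against 49.2 to 90.5 CPM in normal-sized treated livers (median 68.7). The IUGR livers were above the normal median in 12 of 13 cases, and the 2 highest values were those of pigs 46 and 39. The log2 fold change was 0.52 ± 0.17 (adjusted p = 0.217), and 0.26 without the 3 libraries. ATP5ME, subunit e at the dimer interface, had 0.37 ± 0.13, ATP5MC3 0.30 ± 0.12 and UQCR10 0.33 ± 0.13, with adjusted p-values of 0.226 to 0.238. Their log2 fold changes without pigs 38, 39 and 46 were 0.24 for ATP5ME, 0.21 for ATP5MC3 and 0.15 for UQCR10. Members outside the naming rule, picked here after their values were seen, included NDUFS3 (0.43 ± 0.12), a core subunit of complex I, NDUFA8 (0.44 ± 0.14) and COX6B (0.40 ± 0.14), with log2 fold changes of 0.37, 0.28 and 0.26 in the same order without those pigs.

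The normal-sized treated livers also entered the comparison of the paste within normal-sized piglets, so the 2 comparisons share those 12 libraries. In normal-sized treated against untreated livers, edgeR called 0 members, with 0% of all genes called. At an unadjusted p under 0.05 there were 14 members (21.5%), all lower in treated livers, against 5.46% of all genes on that side. The log2 fold change was negative for 62 of 65 members, all 18 of complex V, 35 of 36 of complex I, both of complex III and 7 of 9 of complex IV. Positive values made up 4.62% of the members and 49.1% of all genes, and the median was -0.22 beside -0.0046 for all genes. Without pigs 38, 39 and 46, none of which is in these 2 groups, 32 members (49.2%) were lower at an unadjusted p under 0.05, against 10.6% of all genes, and the median was -0.21. The 3 exceptions in direction were NDUFC2 (0.05 ± 0.17), COX7A1 (0.05 ± 0.17) and NDUFA4L2 (0.05 ± 0.34).

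This was the only comparison in which the choice of test changed the number of members called, while the calls over all genes changed in other comparisons too. DESeq2 fitted to the 2 normal-sized groups alone called 6 members, all lower in treated livers (9.09%, against 1.18% of all genes on that side). These were NDUFB3, NDUFA5 and NDUFC1 of complex I, UQCRB of complex III, and ATP5MC1 and ATP5MC3 of complex V, with adjusted p-values of 0.0088 to 0.0370. limma voom with quality weights called 10, all lower (15.4%, against 4.19%), among them NDUFC1, ATP5MC1, ATP5MC3, NDUFA9, ATP5MG and NDUFB3. edgeR without pigs 38, 39 and 46 called NDUFC1 alone (1.54%, against 0.595%). DESeq2 on all 4 groups called 0, and so did edgeR on the 2 groups alone, where the lowest adjusted p of a member was 0.0640. The members' median log2 fold change was -0.21 to -0.23 in these fits. Why the calls differed was not tested.

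NDUFC1 had 8.24 to 13.9 CPM in normal-sized treated livers (median 10.3), against 10.4 to 18.8 CPM in normal-sized untreated livers (median 13.5). Of 12 treated livers 11 lay below the untreated median and 7 below the lowest untreated liver. Its log2 fold change was -0.46 ± 0.13, with an adjusted p of 0.202 in edgeR on all libraries, 0.0492 without the 3 libraries, 0.0204 in DESeq2 on the 2 groups and 0.0134 in limma voom.

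ATP5MC3, which encodes the same c-ring protein as ATP5MC1 from another gene, had 152 to 244 CPM in normal-sized treated livers (median 186), against 190 to 314 CPM in normal-sized untreated livers (median 254). All 12 treated livers lay below the untreated median and 8 lay below the lowest untreated liver. Its log2 fold change was -0.38 ± 0.12 (adjusted p = 0.259 in edgeR, 0.0180 in DESeq2 on the 2 groups). ATP5MC1 had 49.2 to 90.5 CPM (median 68.7), against 68.2 to 135 CPM (median 95.4), with a log2 fold change of -0.48 ± 0.18 (adjusted p = 0.366 in edgeR, 0.0191 in DESeq2 on the 2 groups) and again all 12 treated livers below the untreated median.

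UQCRB (chr4:40403272-40409080) had 70.8 to 101 CPM in normal-sized treated livers (median 86.1), against 82.9 to 133 CPM in normal-sized untreated livers (median 106). All 12 treated livers were below the untreated median, and 7 of 11 untreated livers were above the highest treated one. The log2 fold change was -0.32 ± 0.31 in edgeR with all libraries, where the error of UQCRB carries the very low values of pigs 38, 39 and 46, and -0.31 in DESeq2 on the 2 groups (adjusted p = 0.0298). NDUFA5, a subunit of the matrix arm of complex I, had 36.3 to 53.6 CPM (median 43.3), against 41.9 to 63.5 CPM (median 51.3), a log2 fold change of -0.29 ± 0.28. ATP5MD, a small membrane subunit of ATP synthase, had -0.29 ± 0.25. Further members named by rule had -0.27 ± 0.13 for ATP5ME, -0.27 ± 0.10 for ATP5MG, -0.26 ± 0.11 for NDUFA9, -0.22 ± 0.11 for ATP5F1A, -0.21 ± 0.12 for NDUFS4 and -0.24 ± 0.14 for UQCR10.

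**Figure D3:**
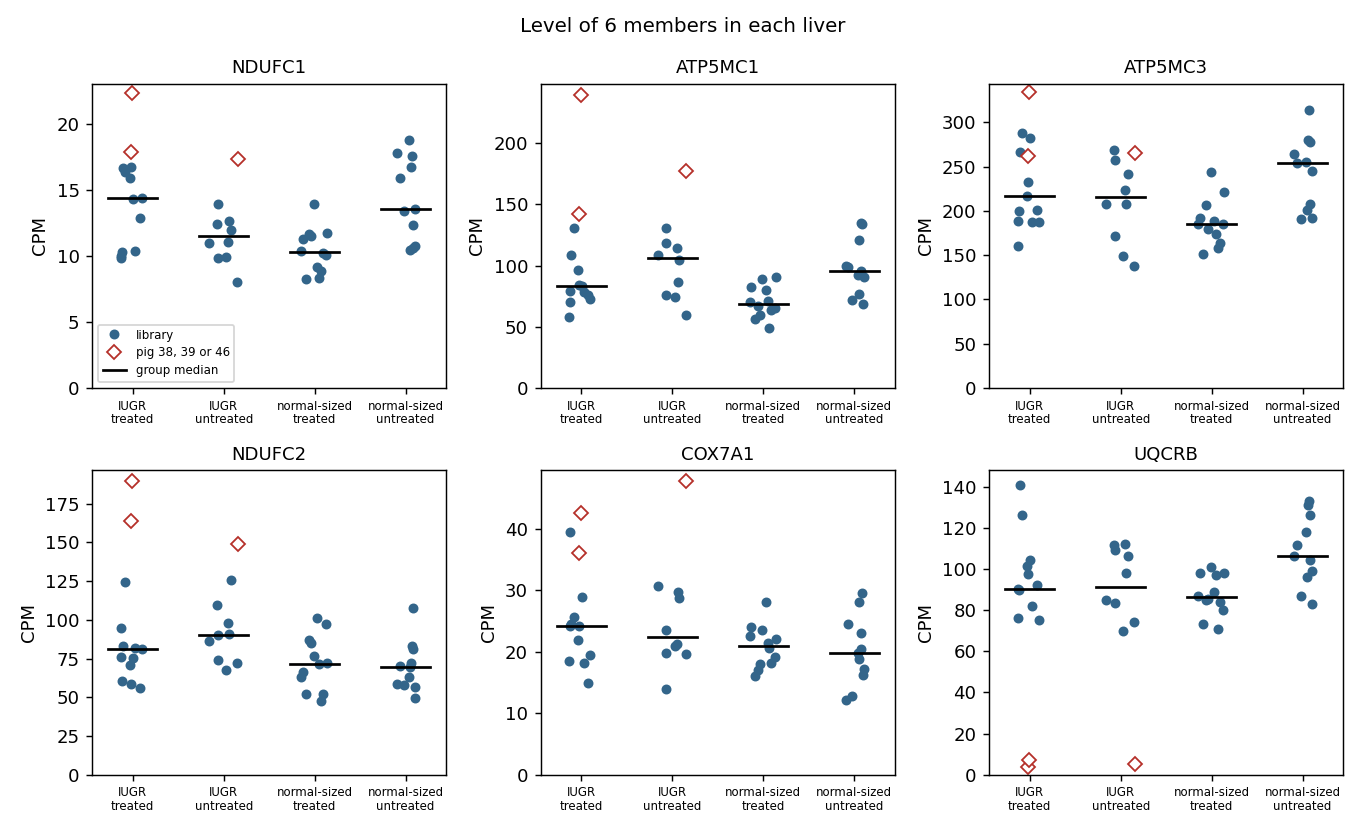
Level of 6 members in CPM (vertical axes from 0) in each liver by labelled group, with a bar at the group median and open diamonds for pigs 38, 39 and 46. NDUFC1, ATP5MC1, ATP5MC3 and UQCRB have their lowest group median in normal-sized treated livers, NDUFC2 and COX7A1 do not, and UQCRB is near 0 in the 3 marked libraries, with 3.72 to 7.31 CPM.

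In IUGR piglets the paste came with little difference. Between IUGR treated and IUGR untreated livers edgeR called 0 members, with 0.029% of all genes called, and DESeq2 and limma voom called 0. Only NDUFC1 had an unadjusted p under 0.05 (1 of 65, 1.54%, against 2.9% of all genes on the higher side), with 9.84 to 22.3 CPM in IUGR treated livers (median 14.4), against 7.99 to 17.3 CPM in IUGR untreated livers (median 11.5). Its log2 fold change was 0.29 ± 0.14 (adjusted p = 1.00). The log2 fold change was positive for 49 of 65 members, against 57.2% of all genes, and had a median of 0.06, beside 0.02 for all genes. With pigs 38, 39 and 46 left out, 35 of 65 were positive with a median of 0.01, and 2 members were higher at that limit (3.08%, against 5.64% of all genes). In limma voom the median was -0.04, so the sign of this small difference was not stable.

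Whether the IUGR difference itself was another one with the paste than without it was tested as an interaction. edgeR called 0 members, with 0% of all genes called, and DESeq2 and limma voom called 0. At an unadjusted p under 0.05 there were 9 members (13.8%), all higher, against 4.44% of all genes on that side. The difference was positive for 63 of 65 members, against 55% of all genes, in all but NDUFC2 (-0.10 ± 0.25) and COX7A1 (-0.02 ± 0.24), with a median of 0.28 beside 0.03 for all genes. NDUFC1 had the largest value, 0.75 ± 0.19 (p = 0.000267, adjusted p = 0.235), and its adjusted p over the alternatives was 0.0536 to 0.260. Others among the 9 were NDUFS3 (0.58 ± 0.18, named after its values were seen), ATP5MC3 (0.50 ± 0.17), ATP5ME (0.46 ± 0.19) and ATP5MG (0.31 ± 0.14). Without pigs 38, 39 and 46 the median was 0.22, 63 of 65 were positive, and 15 members (23.1%, against 6.96% of all genes) had an unadjusted p under 0.05. The members share the movement described above and are not independent of each other, so these counts do not add up as separate pieces of evidence, and the interaction is built from the same 4 groups as the contrasts before it.

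**Figure D4:**
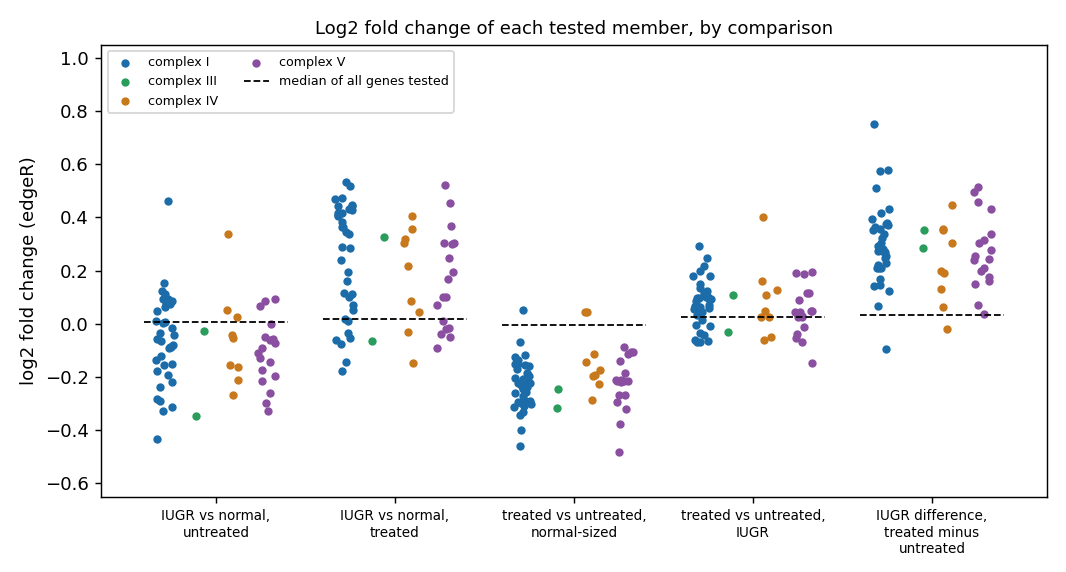
Log2 fold change of each of 65 members (points, coloured by complex) in 5 comparisons, with a dashed line at the median of all genes tested. Members lie mostly above the line for IUGR against normal-sized treated livers (median 0.24) and for the interaction (median 0.28), and mostly below it for treated against untreated normal-sized livers (median -0.22). No point passed edgeR's adjusted threshold.

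Several subunits exist as tissue isoforms. COX7A2, the form of subunit 7a found in liver, had 26.4 to 79.3 CPM over the 46 livers, and COX7A1, the form of heart and skeletal muscle, had 12.2 to 47.7 CPM. COX6A1, the liver form of subunit 6a, had 97.2 to 232 CPM, and COX8H was at 0 in all but 2 livers. NDUFA4 had 74.7 to 287 CPM. Because these values are not per length, no order is read between the forms.

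COX7A1 was detected in every liver. It had 14.97 to 42.6 CPM in IUGR treated livers (median 24.3), against 16.1 to 28.1 CPM in normal-sized treated livers (median 21.0), a log2 fold change of 0.32 ± 0.16 (adjusted p = 0.311). In untreated livers it had 13.9 to 47.7 CPM with IUGR (median 22.4), against 12.2 to 29.6 CPM in normal-sized livers (median 19.7), a log2 fold change of 0.34 ± 0.18 (adjusted p = 0.424). The highest values of both IUGR groups were those of pigs 38 and 46, and without the 3 libraries the values were 0.17 and 0.19. COX7A2 had 0.04 ± 0.13 and -0.16 ± 0.14 in the same contrasts. The 9 skeletal muscle genes of the marker list, such as the muscle creatine kinase gene CKM, summed to 2.28 to 24.6 CPM per liver, and 2 heart genes to at most 4.12 CPM. Whether muscle or vessel tissue in the sample contributed to COX7A1 was not tested.

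The c ring of ATP synthase is encoded by 3 genes whose mature proteins are identical and whose import signals differ, so that reads in the shared coding part could be divided among them by a counting step that is not described. ATP5MC2 had 144 to 408 CPM in IUGR treated, 141 to 267 in IUGR untreated, 142 to 188 in normal-sized treated and 141 to 233 in normal-sized untreated livers. Its log2 fold change in normal-sized livers with the paste was -0.11 ± 0.13, against -0.38 for ATP5MC3 and -0.48 for ATP5MC1, and the differences among the 3 were not tested. ATP5IF1, the inhibitor that stops ATP synthase from running backwards, had group means of 58.2 to 62.7 CPM and log2 fold changes of -0.11 to 0.15 in the 5 contrasts.

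Members had a smaller spread than genes at large. The comparison was not matched for level, so it does not show that members are steadier than genes of like level. The SD of log2 CPM over the 43 livers had a median of 0.26 for the 65 members and 0.32 for all genes tested, and 55 of 65 members lay below the median of all genes. NDUFV2 varied least (0.20) and NDUFA4L2 most (0.68), followed by ATP5MPL (0.41), a small subunit of ATP synthase, and NDUFA7 (0.38). Over all 46 livers the median for members was 0.36, beside 0.45 for all genes, and the member with the largest SD was UQCRB (1.08).

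The 3 libraries that stood apart had members on both sides of the other livers. In them, UQCRB had 4.95, 3.72 and 7.31 CPM (pigs 38, 39 and 46), while the other 43 livers had 69.8 to 141 CPM. COX6C had 6.003, 4.37 and 4.64 CPM, while the others had 62.9 to 116 CPM. NDUFA5 had 4.08, 2.51 and 4.09 CPM, while the others had 35.1 to 63.5 CPM. For each of these genes the 3 libraries lay far below the lowest of the rest.

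Each complex contributed low members. ATP5MD, a small subunit at the dimer interface of ATP synthase, had 8.92, 6.43 and 9.93 CPM in the 3 libraries, while the others had 43.5 to 89.4 CPM. NDUFS1 had 35.7, 16.6 and 16.3 CPM, while the others had 108 to 204 CPM. NDUFV2 had 16.9, 16.6 and 18.3 CPM, while the others had 39.1 to 75.4 CPM, and ATP5PF, COX7C and NDUFA4 were also below all other livers in each of the 3.

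At the same time NDUFC2 was at 149, 164 and 190 CPM, while the others had 47.7 to 126 CPM. ATP5MC2 was at 267, 261 and 408 CPM, while the others had 141 to 233 CPM. UQCR10, the other member of complex III, was at 94.7, 98.6 and 139 CPM, while the others had 45.4 to 92.5 CPM. The subunits of 1 complex thus went opposite ways in these libraries: within complex III the mean log2 difference from the median of the other 43 was -4.21 for UQCRB and 0.82 for UQCR10.

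In all 3 libraries, 12 of 65 members (18.5%) were more than 2-fold below the median of the other 43, against 23.6% of all genes, and 2 (3.08%), NDUFC2 and NDUFA11, were more than 2-fold above, against 4.48% of all genes. Below the lowest of the other 43 in all 3 were 17 members (26.2%, against 27.4% of all genes), and above the highest in all 3 were 18 (27.7%, against 19.1%). In the library of pig 46 alone 25 members (38.5%) were more than 2-fold above, against 25.8% of all genes, and 37 (56.9%) were above all of the other 43, against 32.7%. For pigs 38 and 39 these shares were 7.69% and 10.8% more than 2-fold above, against 10.2% and 19.1% of all genes. With the 3 libraries included, the median pairwise r of members was 0.509 in place of 0.723, and UQCRB and UQCR10 had r = -0.43 in place of 0.84. Hepatocyte markers reached their lowest sum among IUGR treated livers in pig 39 (68960 CPM). Among IUGR untreated livers the lowest was pig 5 (70100 CPM), which is not one of the 3. Erythroid markers reached their highest group sums, 2719 and 3097 CPM, in pigs 38 and 46. What part these play in the low and high members was not tested.

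**Figure D5:**
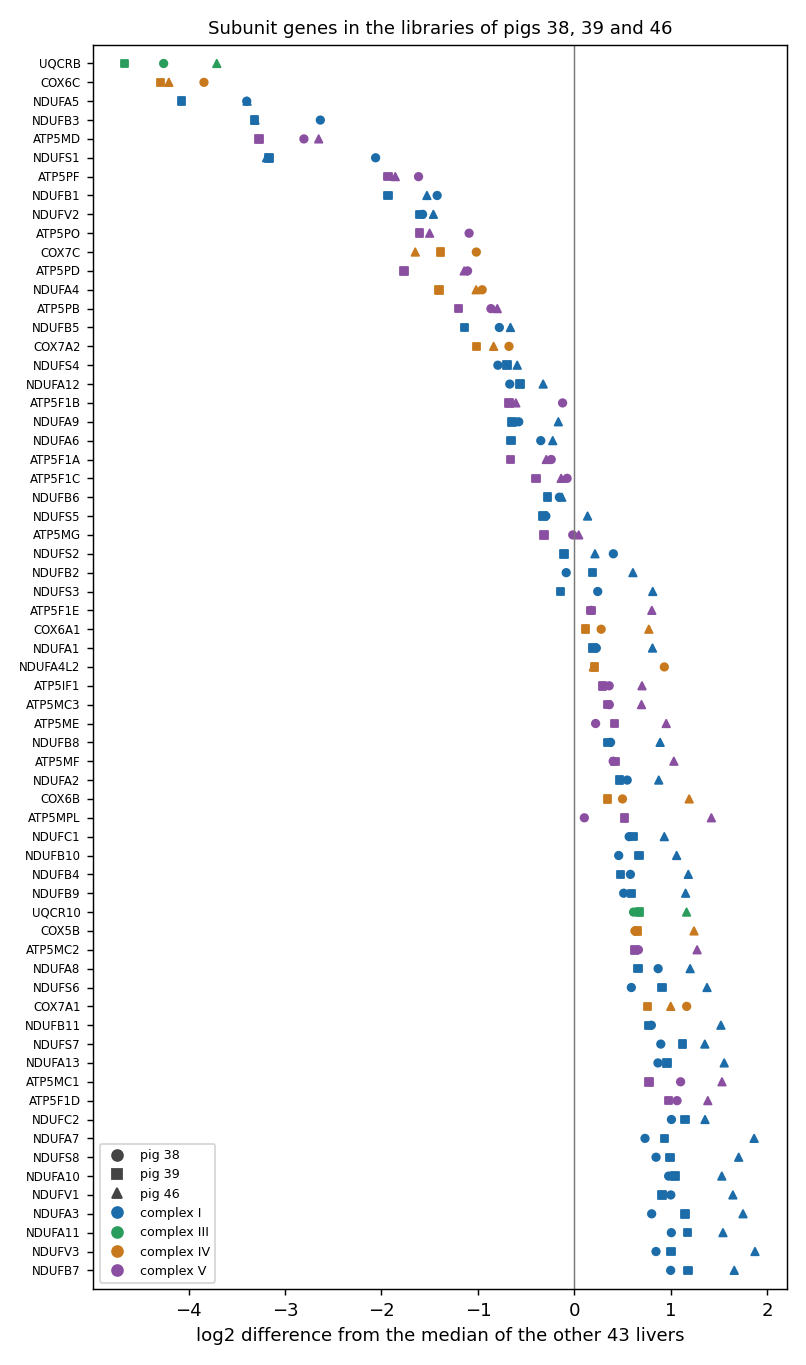
Log2 difference of each of 65 members (rows, sorted by the mean of the 3) from its median over the other 43 livers, in the libraries of pigs 38 (circles), 39 (squares) and 46 (triangles), coloured by complex. UQCRB, COX6C and NDUFA5 lie lowest, at -3.39 or below, and members of complex I lie near both ends.

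Genes that work beside these subunits were looked at in the same fits, and edgeR called none of them in any contrast. Among 76 proteins of the mitochondrial ribosome, which makes the mitochondrial subunits, 73 had a negative log2 fold change in normal-sized treated against untreated livers (median -0.20), and 22 of the 76 lower (against 5.46% of all genes) and 1 higher had an unadjusted p under 0.05. In the interaction 73 of 76 were positive with a median of 0.23. These values lie close to those of the 65 members in the same contrasts. In IUGR untreated against normal-sized untreated livers 19 of 76 were positive (median -0.15), against 51% of all genes. At an unadjusted p under 0.05, 11 were lower and 1 higher there, against 6.09% and 6.44% of all genes. The 2 with the smallest p were MRPL51, at -0.49 (adjusted p = 0.110), and MRPL49, at 0.36 (adjusted p = 0.215). In IUGR treated against normal-sized treated livers 53 of 76 were positive (median 0.10). At that limit 17 were higher and 0 lower, against 13.7% of all genes on the higher side.

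Of 44 assembly factors on the list 26 were tested, with a median of -0.15 in normal-sized treated against untreated livers and 7 of 26 positive, against 49.1% of all genes. NDUFAF5, an enzyme that modifies a complex I subunit during assembly, had -0.57 in IUGR untreated against normal-sized untreated livers (adjusted p = 0.0701), and TMEM70, needed for ATP synthase and complex I assembly, had -0.42 (adjusted p = 0.199). The 14 regulators of mitochondrial biogenesis had medians between -0.02 and 0.02 in the 5 contrasts. Among them TFB1M, a methyltransferase of mitochondrial ribosomal RNA, had -0.33 (adjusted p = 0.216) and ESRRA, a nuclear receptor that acts on respiratory genes, had 0.36 (adjusted p = 0.267) in untreated livers.

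Complex II has 4 subunits, all nuclear-encoded. In normal-sized treated against untreated livers their median was -0.03 and 1 of 4 was positive. SDHD, a membrane anchor of the complex, had -0.27 there (adjusted p = 0.281) and SDHA, its flavin subunit, -0.01. Cytochrome c (CYCS) had -0.45 (adjusted p = 0.657). The 6 tested genes of supercomplexes and the cristae had a median of -0.13, with 2 positive, against 49.1% of all genes. At an unadjusted p under 0.05, 1 of the 6 was lower, against 5.46% of all genes. HIGD1A and CHCHD3 among them had -0.35 and -0.34. The ADP/ATP carriers SLC25A5 and SLC25A6 had -0.42 (adjusted p = 0.141) and 0.08.

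Markers of other cells were read beside these contrasts. Of 10 erythroid genes, 7 were higher in IUGR untreated than normal-sized untreated livers at an unadjusted p under 0.05, against 6.44% of all genes. The median log2 fold change of the 10 was 0.99. Their summed level was 655 to 2719 CPM (highest in pig 38), against 153 to 2240 CPM. In IUGR treated against IUGR untreated livers 3 of the 10 were lower at that limit (median -0.63), against 227 of 13780 genes. In the interaction 3 were lower (median -1.12), against 307 of 13780 genes, while most respiratory chain members had positive values. Of 6 macrophage genes, 3 were higher in IUGR treated than in normal-sized treated livers at that limit (median 0.35), against 13.7% of all genes. The sums of the 6 were 585 to 1535 CPM (highest in pig 46), against 526 to 1055 CPM. In normal-sized livers with and without the paste, 0 genes of the hepatocyte, erythroid and macrophage lists reached that limit. Their part in the values of the respiratory chain genes was not tested.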

How the data were processed

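Liver RNA of 46 piglets was sequenced by the authors as paired-end reads and mapped to Sscrofa11.1 with Bowtie2 2.2.5. For each gene the authors deposited estimated counts, not normalised for depth or length, and 85.9% of them are whole numbers. No source used here names the counting program. Values were rounded to whole numbers before the fits.

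Each column was given to the piglet whose number heads it. edgeR 4.0.16 (R 4.3.3) was fitted once to all 46 libraries with a mean per group, TMM scaling, filterByExpr with a minimum count of 10, the robust quasi-likelihood test and Benjamini-Hochberg adjustment over 13780 genes, and was tested on simulated data. Standard errors of log2 fold changes were derived from the F statistic. Log2 CPM for spread and correlation used a prior count of 2. Alternatives were DESeq2 1.42.0 on all groups or only those of a comparison, edgeR with DESeq2 size factors, edgeR with unfiltered genes, edgeR on only the groups of a comparison, limma 3.58.1 voom with quality weights, and all results without pigs 38, 39 and 46. TMM and DESeq2 scaling moved the median of all genes by at most 0.015.

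No 2 libraries agreed within sampling noise (lowest chi-square per gene 21.4 over 1035 pairs). All 66 members matched RefSeq by gene identifier, 18 of them under another symbol there. Promoter and protein sequences were not analysed here.

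The members, gene lists and markers were chosen with earlier results of these data known. Named members, 26 in all, were in each complex the 5 with the smallest p in untreated IUGR against normal-sized livers, every member past the threshold elsewhere, the tissue isoforms, and in each complex those with the highest and lowest CPM and the largest SD, and of each related list the 2 genes with the smallest p. Other members were named after their values were seen. The piglets are separate animals, and precision rests on their number for most members, whose counts are large. Counts were few for NDUFA4L2 and COX8H.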

Additional observations from a re-analysis of the deposited data

Results flagged for a closer look

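Among the 10 livers labelled IUGR untreated, 7 members had 1 value separated from the rest by more than Dixon's 95% limit, in 31 tests, and the separate value was that of pig 38 each time. Chance alone gives about 1 flag in 20 such groups, but this count cannot be read against it, since some of these members were named for their large SD, which includes the libraries of pigs 38, 39 and 46, and the members are correlated. It was the lowest value for UQCRB (4.95 CPM, next 69.8), COX6C (6.003 CPM, next 62.9), NDUFA5 (4.08 CPM, next 35.1), ATP5MD (8.92 CPM, next 43.5), NDUFS1 (35.7 CPM, next 114) and NDUFV2 (16.9 CPM, next 39.1). It was the highest value for COX7A1 (47.7 CPM, next 30.8). The libraries of pigs 39 and 46 in the IUGR treated group, which is too large for this limit, lay on the same side of the median of the other 43 livers for all these genes.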

How the results depend on the processing

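Of 44 recomputed values, 41 stayed within 1 SD or, for counts, at the same number of calls, and 3 moved. This SD is that over libraries, members or pairs and not the error of a median, so it is a wide limit. A median r of 0.509 against 0.723 counted as within it, and every count that stayed was 0 both times. The 3 that moved were all for the paste in normal-sized piglets. There the count of members called was 0 in edgeR, 6 in DESeq2 on the groups compared, 10 in limma voom with quality weights and 1 in edgeR without pigs 38, 39 and 46, lower in treated livers each time. Over all genes the calls were 0 in edgeR, 335, 783 and 105 in the same order of alternatives. The median log2 fold change of members in IUGR treated against normal-sized treated livers was 0.24 with all libraries and 0.13 without those 3 pigs, and the members at an unadjusted p under 0.05 were 28, 8 without those pigs and 13 in limma voom. The median pairwise correlation was 0.509 and 0.723. In IUGR untreated against normal-sized untreated livers the calls over all genes were 6 in edgeR and 2 to 238 in the alternatives, none of them a member. No paired analysis was possible because each pig number occurs once, and litter is not in the labels. With 10 to 13 livers a group, single libraries were not left out in turn. Counts were few for NDUFA4L2, with a median of 8 a library, and for COX8H.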
